A study of Rattus norvegicus with 6 samples.

Results

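The calpains and their inhibitor calpastatin were represented by 15 probe sets for 10 genes, of 31042 probe sets tested and 14217 genes with a symbol of their own. A probe set belonged to the family when the platform annotation gave it exactly 1 symbol among Capn1, Capn2, Capn3, Capn5, Capn6, Capn7, Capn8, Capn9, Capns1 and Cast, and no filter on low values was applied, so all 15 were kept. The genes were singled out with the difference between the groups already known, above all for Capn9 and Capn6, so their differences are descriptions given without p-values, and counts of members past a threshold support nothing. The cells were IEC-6, an untransformed rat line from the small intestinal crypt, grown with 5% fetal bovine serum. Control cells carried a lentivirus for a scrambled short hairpin RNA and ShSuz12 cells one against Suz12, a core subunit of Polycomb Repressive complex 2 (PRC2). Both had been selected with puromycin after an infection whose efficiency was estimated at 25%. RNA from 3 independent experiments per group was hybridized to 6 Affymetrix rat genome arrays, and values are log2 units from robust multi-array averaging (RMA). Each group was 1 selected cell population, so an effect of the depletion and a difference between the 2 populations cannot be told apart.

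Calpains are calcium-dependent cysteine proteases of the cytosol that cut their substrates at few places and so change their function instead of degrading them. The conventional calpains pair a catalytic subunit, Capn1 or Capn2, with the small regulatory subunit Capns1, act on adhesion and cytoskeletal proteins during cell spreading and migration, and are held in check by calpastatin. Other members are tied to tissues: Capn3 to skeletal muscle, and Capn8 and Capn9 to the surface mucous cells of the stomach and to the gut. Capn5, Capn6 and Capn7 lack the calcium-binding EF-hand domain of the conventional enzymes, and Capn6 also lacks the active-site cysteine and is thought to have no protease activity.

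The targeted gene was checked first. Suz12 had values of 8.45, 8.55 and 8.77 in control and of 5.82, 5.77 and 5.91 in ShSuz12 samples, so the groups did not overlap and every library matched its label (log2 difference -2.76, standard error 0.09; limma, adjusted p = 2.78e-07). Array medians ran from 6.15 to 6.17 in control and from 6.26 to 6.27 in ShSuz12 samples. Of 15 measured markers of intestinal epithelium, Cdh1 (E-cadherin) and Krt8 were bright, with means of 12.58 and 9.78 in control cells. Epcam, Vil1, Krt18, Fabp1, Fabp2, Muc2 and Si had means at percentiles 1.64 to 27.6 of the array in both groups, so these markers were dim or near the floor. The means of Lgr5, Krt19, Chga, Alpi, Cdx2 and Cdx1 stood at percentiles 21 to 42.8 in control cells. Of 10 fibroblast and smooth muscle markers, Col1a1 (13.20), Tagln (11.77), Col3a1 (11.11) and Dcn (10.10) were bright in control cells, while Lum (3.64), Pdgfra (4.84) and Thy1 (4.86) were dim.

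Capn9, a protease of the digestive tract, was lower in ShSuz12 cells. Its probe set (1371088_at) read 7.02, 6.97 and 6.81 in control samples and 4.47, 4.69 and 4.16 in ShSuz12 samples. All 3 ShSuz12 values lay below all 3 control values, with a gap of 2.13 between the nearest samples. The means were 6.94 ± 0.11 and 4.44 ± 0.27 (SD, n = 3 each), a log2 difference of -2.50 with a standard error of 0.13. The control mean stood at percentile 58.6 of the array and the ShSuz12 mean at percentile 24.4, near the floor, so no fold is given.

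Capn6 went the other way. It is an embryonic and microtubule-binding member of the family. Its probe set (1368131_at) gave 4.87, 4.77 and 4.78 in control samples and 6.95, 7.29 and 7.21 in ShSuz12 samples. Every ShSuz12 value exceeded every control value, by at least 2.08. The means were 4.81 ± 0.06 and 7.15 ± 0.17 (SD, n = 3 each), a log2 difference of 2.35 (standard error 0.09). In control cells Capn6 was dim, at percentile 31.5, and in ShSuz12 cells it stood at percentile 60.9.

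Capn9 and Capn6 were the only family probe sets with a difference of at least 2-fold. At an adjusted p under 0.05 from limma and at least 2-fold, 1 of the 15 was called lower and 1 higher, where 0.396% of all probe sets were lower and 3.10% were higher by the same rule. The family was chosen on this contrast, so nothing is read from these counts. Without the 2-fold limit 8 were lower and 2 higher, 10 in either direction, and 5 did not pass (19.5% of all probe sets were lower, 14.8% higher and 34.3% either). The ShSuz12 values were all below the control values for 7 probe sets, all above for 2 and overlapped for 6, against 28.1% and 19.4% of all probe sets below and above. The median log2 difference was -0.24 in the family and -0.05 over all probe sets.

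**Figure D1:**
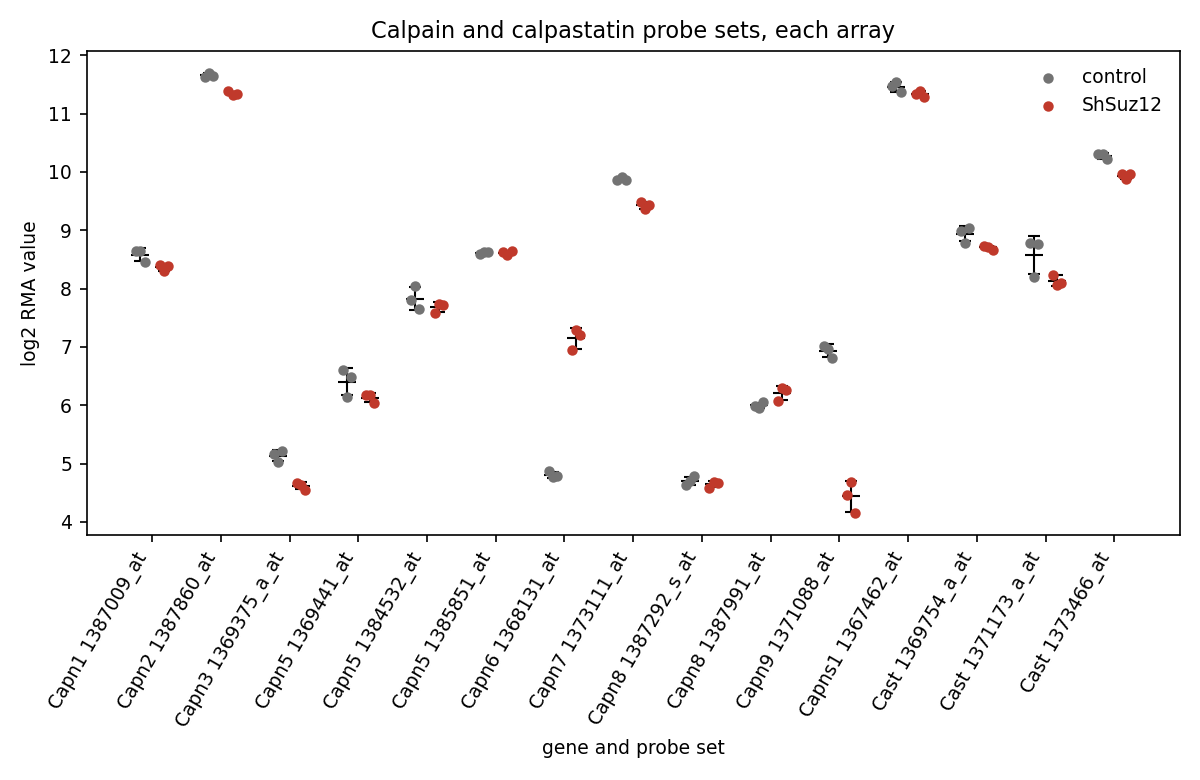
Log2 RMA values of the 15 calpain and calpastatin probe sets on each array, grey for control and red for ShSuz12 samples, with the mean and SD (n = 3) in black. The 2 groups are over 2 log2 units apart for Capn6 and Capn9, in opposite directions, and lie within 0.52 of each other on average for the rest.

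The promoter windows of Capn6, Capn9 and Capn7 are printed because the first and second belong to the members with differences over 2-fold in opposite directions, and Capn7 is a CG-rich member for contrast. Mammalian PRC2 is known mostly from CG-rich promoters. The windows come from RefSeq on build GRCr8, from 250 bases before to 50 after the gene start, 5′ to 3′ on the strand of the gene, and capitals mark each CG. The Capn6 window is chrX:112202129-112202428 on the minus strand, the Capn9 window chr19:69446597-69446896 on the plus strand and the Capn7 window chr16:6551893-6552192 on the plus strand.
Capn6: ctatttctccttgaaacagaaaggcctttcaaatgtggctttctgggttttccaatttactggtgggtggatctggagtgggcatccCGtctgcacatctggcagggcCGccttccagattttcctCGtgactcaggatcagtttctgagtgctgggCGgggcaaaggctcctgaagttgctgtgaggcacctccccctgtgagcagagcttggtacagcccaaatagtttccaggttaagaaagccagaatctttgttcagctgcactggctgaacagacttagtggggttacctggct
Capn9: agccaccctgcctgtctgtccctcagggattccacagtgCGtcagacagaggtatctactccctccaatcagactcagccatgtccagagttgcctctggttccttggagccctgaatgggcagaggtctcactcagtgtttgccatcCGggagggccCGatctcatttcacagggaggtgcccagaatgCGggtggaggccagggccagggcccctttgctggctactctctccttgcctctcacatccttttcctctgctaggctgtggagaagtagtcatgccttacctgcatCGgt
Capn7: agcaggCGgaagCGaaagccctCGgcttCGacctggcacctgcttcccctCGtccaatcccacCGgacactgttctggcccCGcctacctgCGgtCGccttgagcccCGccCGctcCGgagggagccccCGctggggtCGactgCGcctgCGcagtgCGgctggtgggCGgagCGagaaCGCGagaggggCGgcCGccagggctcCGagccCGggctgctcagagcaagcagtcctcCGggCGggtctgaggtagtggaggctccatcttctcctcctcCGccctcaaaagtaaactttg

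The Capn6 window held 4 CG and the Capn9 window 5, against a median of 7 over 33469 promoters of the same length, of which 30.7% and 38.0% had fewer. Capn3 held 4 CG, Capn8 held 2, Cast 9 and Capn2 10, while Capn7 held 28 and Capns1 30, more than 87.3% and 89.7% of all promoters. The members thus split into 2 CG-rich windows and 6 that were not. The family was chosen above all for Capn6 and Capn9, so nothing is read from where these 2 fall. A window was found for 8 of the 10 genes, not for Capn1 and Capn5. The letters TATAAA, searched on both strands, were in none of the 8 windows and in 14.2% of all promoters. GGGCGG, searched the same way, was in 3 of 8 (Capn6, Capn7 and Capns1) and in 33.1% of all. CCAAT was in 5 of 8 and in 37.5% of all, and CANNTG, with N for any base, in 5 of 8 and in 72.1%. With only 8 windows, nothing is read from these counts. The windows of Capn2 and Capn8 lie on chromosome 13, 51.6 kb apart and on opposite strands, pointing away from each other.

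**Figure D2:**
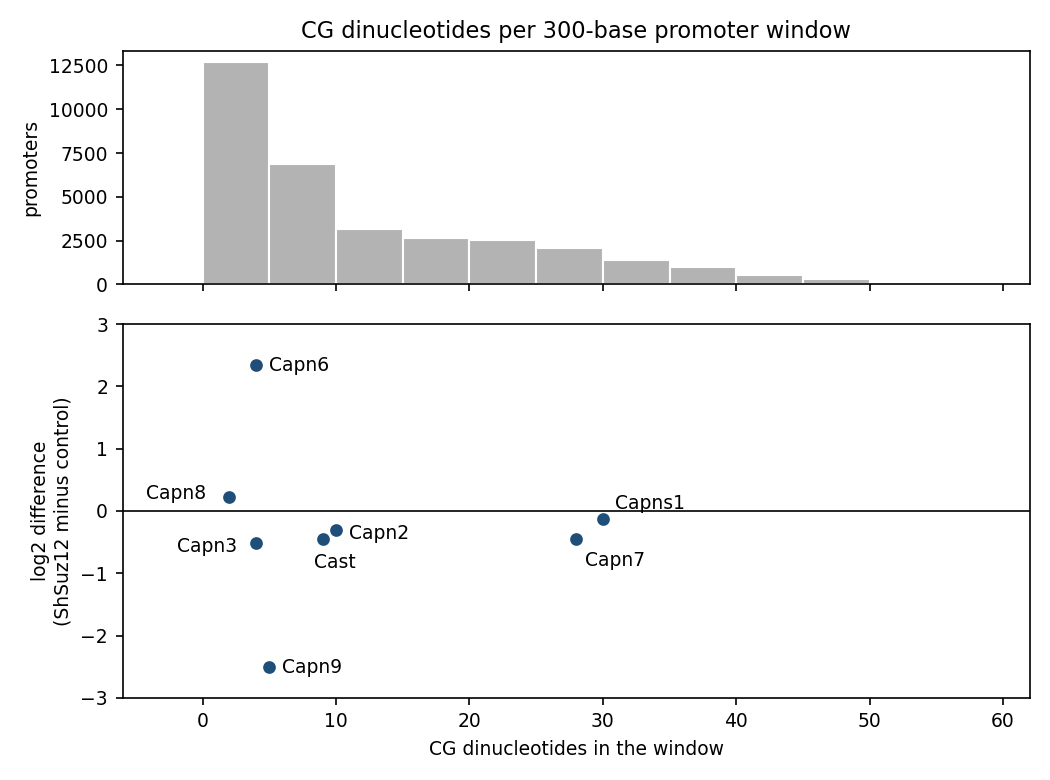
Top, number of promoters by CG dinucleotides in the 300-base window, over all promoters of the table. Bottom, the 8 family genes with a window, by CG count and by the log2 difference of the probe set with the largest difference. Capn6 at 4 CG and Capn9 at 5 CG lie at opposite ends of the vertical axis, and the CG-rich Capns1 and Capn7 lie at -0.13 and -0.45.

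The conventional calpains had slightly lower means in ShSuz12 cells. Capn2, the catalytic subunit of m-calpain, read 11.62, 11.70 and 11.65 in control and 11.38, 11.32 and 11.34 in ShSuz12 samples. These groups did not overlap, and the log2 difference was -0.31 (standard error 0.05), with a ShSuz12 level 19.5% below control. Capn1, the catalytic subunit of µ-calpain, had 8.65, 8.64 and 8.45 against 8.40, 8.30 and 8.39. The nearest samples of the 2 groups were only 0.05 apart, with a difference of -0.22 (standard error 0.07). Capns1, the subunit that both enzymes need, gave 11.48, 11.54 and 11.37 in control and 11.33, 11.39 and 11.29 in ShSuz12 samples. Here the groups overlapped, with a difference of -0.13 (standard error 0.06).

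Calpastatin, which blocks Capn1 and Capn2 when they are bound to calcium, was measured by 3 probe sets, all with lower means in ShSuz12 cells. The brightest (1373466_at) had 10.31, 10.30 and 10.22 in control and 9.96, 9.88 and 9.97 in ShSuz12 samples, a difference of -0.34 (standard error 0.06) between groups that did not overlap. Probe set 1369754_a_at had 8.99, 8.79 and 9.04 against 8.73, 8.72 and 8.67 (-0.24, standard error 0.07). The groups were separate here as well, by 0.06. Probe set 1371173_a_at had 8.78, 8.20 and 8.76 against 8.24, 8.06 and 8.10, and control replicate 2 fell within the range of the ShSuz12 samples. Its difference was -0.45 (standard error 0.15), the largest error in the family, and -0.64 without control replicate 2. That array was the lowest of its group at both of these dimmer Cast probe sets but not at the brightest. The mean differences were thus negative for the inhibitor (-0.24, -0.34 and -0.45) and for its targets Capn2 (-0.31) and Capn1 (-0.22). Of all probe sets, 17.6%, 9.34% and 5.13% had a lower difference than these Cast probe sets, 11.1% than Capn2 and 19.7% than Capn1. A negative sign was common on the array, where 60.8% of all probe sets lay below Capn5 (1385851_at), with its difference of 0.00. Nothing is therefore read from the shared sign.

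Capn3, the muscle calpain, had the most negative difference of the family after Capn9. It read 5.16, 5.03 and 5.22 in control and 4.67, 4.64 and 4.55 in ShSuz12 samples, with no overlap and a log2 difference of -0.52 (standard error 0.07). Both groups were dim, at percentiles 36.7 and 27.6 of the array. Capn7, a member without EF hands that binds the membrane remodelling machinery, gave 9.86, 9.91 and 9.87 against 9.49, 9.36 and 9.43. Its groups were 0.37 apart at the nearest samples, with a difference of -0.45 (standard error 0.06) at a bright probe set, so the ShSuz12 level was 26.9% below control.

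Capn8, the stomach partner of Capn9, differed far less between the groups than Capn9 did. Probe set 1387991_at had 5.99, 5.95 and 6.05 in control and 6.08, 6.30 and 6.27 in ShSuz12 samples, a difference of 0.22 (standard error 0.07) with the groups only 0.03 apart. Probe set 1387292_s_at had 4.63, 4.70 and 4.78 against 4.59, 4.68 and 4.67, overlapping, with a difference of -0.06 (standard error 0.06). The 2 probe sets thus had mean differences of opposite sign. Capn5, a widely expressed member without EF hands, overlapped between the groups at all 3 probe sets. Its differences were -0.28 (standard error 0.11) at 1369441_at, -0.15 (standard error 0.10) at 1384532_at and 0.00 (standard error 0.05) at 1385851_at, where all 6 arrays lay between 8.58 and 8.64. At 1369441_at control replicate 2, at 6.14, lay among the ShSuz12 values, and without it the difference was -0.41, while at 1384532_at the same array was the highest, and the difference without it was -0.04.

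**Figure D3:**
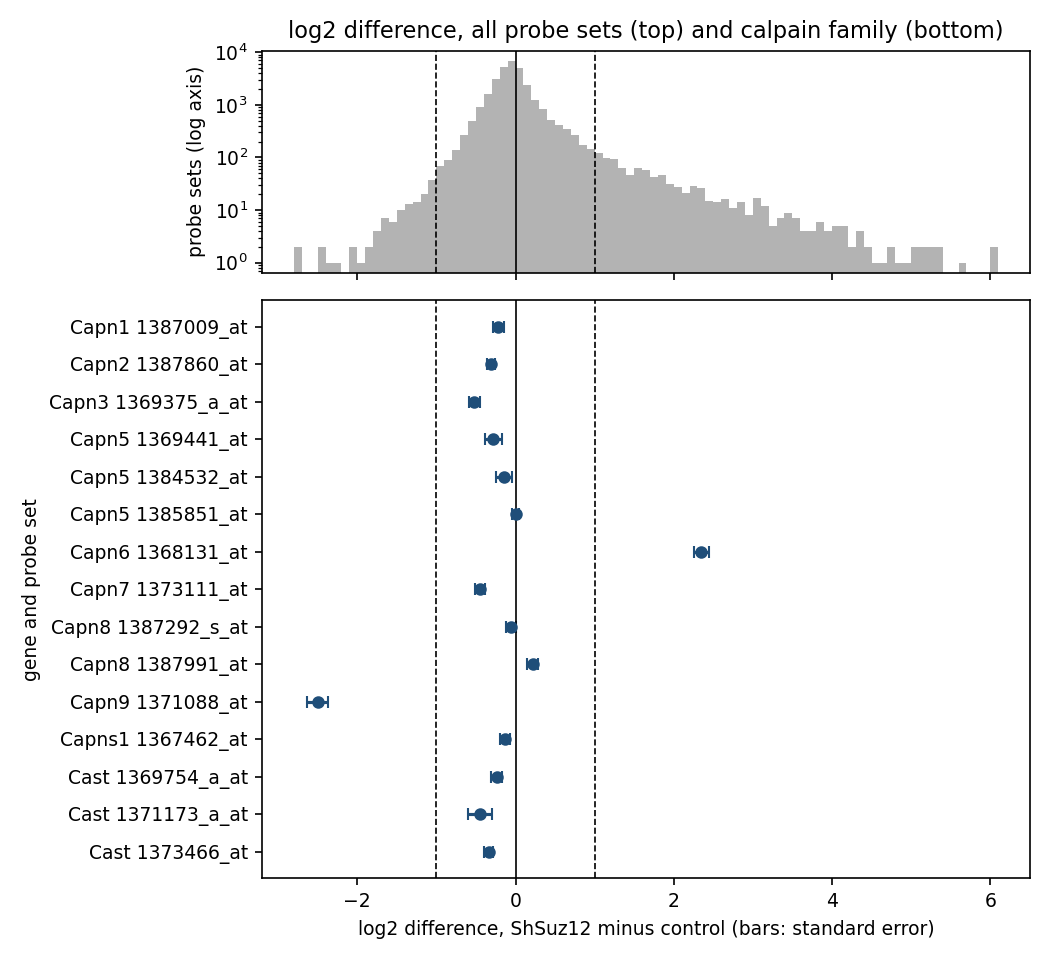
Log2 difference, ShSuz12 minus control, with 0 and the 2-fold limits as solid and dashed lines. Top, count of all probe sets on a log axis. Bottom, the 15 family probe sets with standard errors from limma, of which Capn9 (-2.50) and Capn6 (2.35) lie outside the 2-fold limits and the other 13 between -0.52 and 0.22.

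The probe sets of other genes whose values over the 6 arrays were most like those of Capn9, each centred on its own mean, belonged to Slco3a1, Pgf (at 2 probe sets), Suz12 and Rgs7bp, at root mean square distances of 0.201 to 0.319 log2 units. For Capn6 they were Cdh2, Trps1, Rflnb, Apcdd1 and Enpp1, at distances of 0.0667 to 0.102. With 6 arrays in 2 groups this likeness mostly says that the difference between the groups was of the same size and sign.

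Other genes around the calpains were taken from lists of family members, substrates and tissue markers, 12 lists with 146 genes measured, each by its brightest probe set with 1 symbol. Capn10 was lower by 0.27 on the log2 scale (limma, adjusted p = 0.0365), while Capn13, near the floor of the array, and Capn15 had differences of -0.13 and 0.07 (adjusted p = 0.415 and 0.483). Among 4 other penta-EF-hand proteins, relatives of the calpain calcium-binding domain, Pdcd6 was lower by 0.20 (adjusted p = 0.0194). Sorcin (Sri) was higher by 0.24 at its brighter probe set (adjusted p = 0.00680), while the other had 0.07 with overlapping groups (adjusted p = 0.383). Gca and Pef1 had values of -0.18 and -0.14 (adjusted p = 0.0720 and 0.253).

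Of 20 measured calpain substrates of adhesions and the cell cortex, 1 was at least 2-fold higher and 0 were lower, where 3.82% of all genes were higher and 0.422% lower by this rule. The 1 was Itgb3, the integrin β subunit whose tail calpain cuts. It read 6.05, 6.41 and 6.35 in control and 8.88, 8.83 and 8.91 in ShSuz12 samples, so that no samples overlapped (log2 difference 2.60, standard error 0.09; limma, adjusted p = 5.30e-07). Without the 2-fold limit 4 were higher and 7 lower, against 17.1% and 23.3% of all genes, and the median was -0.10 against -0.05 over all genes. Among 13 substrates of signaling and cell death none passed 2-fold. At an adjusted p under 0.05, 5 were higher and 2 lower, against 17.1% and 23.3% of all genes. The largest of these were Fos (0.79, adjusted p = 0.00132; its other probe set had 0.00) and Nfkbia, the inhibitor of NF-κB (0.66, adjusted p = 5.69e-05).

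Membrane repair genes, which work with conventional calpains when the plasma membrane tears, also had none past 2-fold among 13. At an adjusted p under 0.05, 3 were higher and 5 lower, against 17.1% and 23.3% of all genes. Dysferlin (Dysf) was higher by 0.53 from a dim level (adjusted p = 0.0126) and annexin A6 (Anxa6) lower by 0.39 (adjusted p = 0.00181). Of 26 genes of calcium entry, release and removal 1 was at least 2-fold higher (3.82% of all genes), the receptor-operated cation channel Trpc6. Its values were 4.16, 3.95 and 3.86 in control and 6.43, 6.31 and 6.13 in ShSuz12 samples (difference 2.30, standard error 0.10, adjusted p = 1.58e-06 from limma). The Trpc6 control mean was near the floor, at percentile 15.7 of the array. Without the limit, 7 of these genes were higher and 4 lower, beside the same 17.1% and 23.3% of all genes.

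Capn9 is a gene of gut surface cells, so a list of gastric and gut epithelial genes was set beside it. The list held transcription factors and was not limited to surface cells. Of 18 measured, 2 were at least 2-fold higher (3.82% of all genes), Gkn2 (1.59, adjusted p = 9.14e-05), a secreted gastric protein, and Klf5 (1.05, adjusted p = 5.43e-06), a transcription factor of gut epithelium. The other Klf5 probe sets had differences of 1.05, 0.60 and 0.33. Without the limit 7 were higher and 3 lower, against 17.1% and 23.3% of all genes, with a median of 0.13 against -0.05. The 3 were Gata6 (-0.35, or -0.04 at its other probe set), Klf4 (-0.25) and Gkn1 (-0.22, near the floor), at adjusted p = 0.00329, 0.00987 and 0.0468. The 7 higher were Gkn2, Klf5, Agr2 (0.84), Tff1 (0.46), Psca (0.43), Foxq1 (0.37) and Gata4 (0.33, or -0.03 at its other probe set). Several gastric mucous cell markers of the list were dim in control cells, with 5.75 for Muc5ac, 4.72 for Tff2 and 3.80 for Gkn1. Tff1, another such marker, was not, with 8.32 at percentile 75.3 of the array. The summed level of the list was 12.51 to 12.62 in control and 12.54 to 12.59 in ShSuz12 samples, but Klf4 and Gata6 made up 50% and 21.0% of it in control cells, so it says little of the other genes. Of 16 skeletal muscle genes, the tissue of Capn3, none passed 2-fold and 2 were higher at an adjusted p under 0.05 (17.1% of all genes), Des by 0.36 and Tnnt3 by 0.16 (adjusted p = 0.00656 and 0.0456; the other Tnnt3 probe set had 0.02). All 16 lay below the array median in both groups, the myogenic factor Myod1 near the floor at 3.33 and 3.36.

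Some cell type markers differed between the groups at an adjusted p under 0.05, and others did not. The summed level of 10 fibroblast and smooth muscle markers was 13.93 to 14.12 in control and 14.79 to 14.85 in ShSuz12 samples, with 5 of the 10 at least 2-fold higher, against 3.82% of all genes (Lum by 2.46, Col1a2 by 2.34, Col3a1 by 2.33, Pdgfrb by 1.66 and Dcn by 1.32; adjusted p = 1.51e-05, 6.32e-08, 2.08e-07, 9.42e-06 and 1.33e-06 from limma). The Lum control mean was near the floor, at percentile 8.98 of the array. The other 2 Pdgfrb probe sets had 0.49 each, under 2-fold. Col1a1 made up 56.0% of the sum in control cells, and Col1a1 and Col3a1 made up 38.7% and 38.6% of it in ShSuz12 cells. Acta2 and Tagln of the same list were lower by 0.66 and 0.35 (adjusted p = 4.22e-05 and 0.00142). The summed level of the 15 intestinal epithelium markers was 12.77 to 12.94 in control and 12.24 to 12.29 in ShSuz12 samples. Cdh1 and Krt8 made up 83.9% and 12.1% of that sum in control cells, so it followed these genes, and the median difference of the list was -0.01. Within that list Cdh1 was lower by 0.76 and Krt8 by 0.41 (adjusted p = 6.38e-05 and 9.64e-04 from limma). Lgr5, Cdx2 and Krt19 were higher by 3.59, 1.56 and 1.19 (adjusted p = 5.43e-08, 4.75e-05 and 1.21e-05 from limma). Lgr5 and Krt19 were dim in control cells, at percentiles 21 and 27.3. The 5 leukocyte markers, with Ptprc near the floor, summed to 10.27 to 10.32 and 10.01 to 10.10, of which Cd14 alone made up 91.0% in control cells. The 4 endothelium markers, with Pecam1 near the floor, summed to 6.46 to 6.62 and 6.73 to 6.83. Of these leukocyte markers 3 were lower, against 23.3% of all genes, Cd68 by 0.32, Itgam by 0.25 and Cd14 by 0.23 (adjusted p = 0.0326, 0.0371 and 0.0119). Of the endothelium markers 1 was higher, against 17.1% of all genes, the receptor Kdr by 0.78 (adjusted p = 1.62e-04), whose other probe set had a difference of -0.07. The Kdr control mean at the brighter probe set was near the floor, at percentile 16.1 of the array. The part of these shifts in the values of Capn6, Capn9 and the other members was not tested, and fewer cells of a type cannot be told apart from less RNA per cell. Among the 146 genes, limma called 0 lower and 12 higher by 2-fold or more, against 0.422% and 3.82% of all genes. The count lower was also 0 with limma at an unadjusted p under 0.05 and with the methods' t-test. With so small a share of all genes lower, nothing is read from a count of 0.

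**Figure D4:**
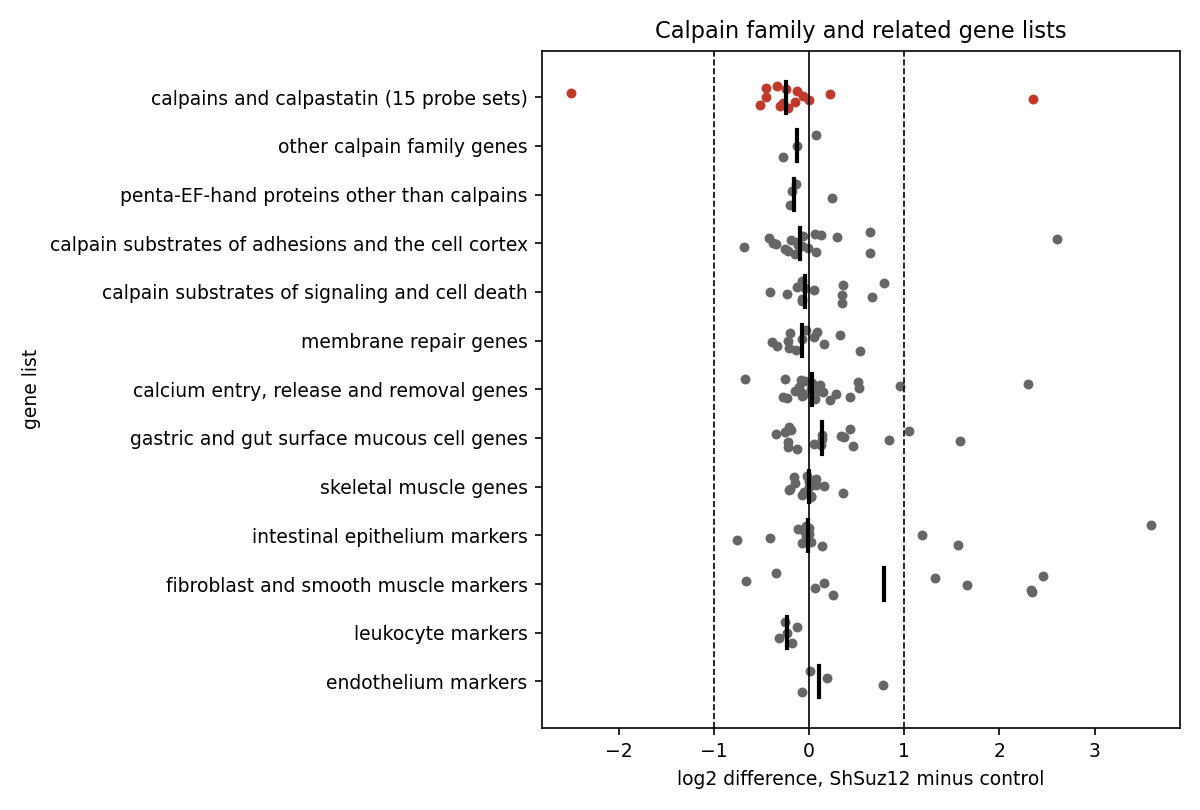
Log2 difference, ShSuz12 minus control, of the 15 calpain and calpastatin probe sets (red) and of 12 other gene lists by the brightest probe set of each gene (grey), with the median as a black bar and dashed lines at 2-fold. Capn9 is the only point beyond the lower limit, and the list medians run from -0.24 for the calpain family to 0.79 for fibroblast and smooth muscle markers.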

How the data were processed

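Gene expression was measured in 3 control and 3 ShSuz12 samples of IEC-6 cells. The deposited values are log2 units that the authors obtained by RMA in FlexArray, which corrects the background, normalizes between arrays and gives 1 value per probe set and array. RMA can compress differences at dim probe sets, and the number of arrays limits the precision. After 57 control probe sets were left out, 31042 probe sets entered a two-sided limma test (lmFit and eBayes, version 3.58.1, R 4.3.3). Benjamini-Hochberg adjustment ran over the whole table, and a call needed an adjusted p under 0.05 and a 2-fold difference. The p-values measure the spread between experiments on 1 population per group. The platform annotation gave 1 symbol to 20826 probe sets, several to 436 and none to 9780. Of the first, 20758 matched the GRCr8 gene table, which changed 0 symbols.

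The members, lists and rules were chosen with earlier results of these data known. Named were every member at every probe set, Suz12, Ezh2 and Eed, the measured genes of the 2 small family lists, the 5 probe sets most like Capn9 and Capn6, and for each other list up to 4 called genes with the largest difference or, where none was called, up to 2 at an adjusted p under 0.05. Dcn, Acta2, Tagln, Cdh1, Krt8, Cd14, Klf4, Gata6, Gkn1, Agr2, Tff1, Psca, Foxq1 and Gata4 were added after their values were seen. So were the markers given only as bright, as dim or by percentile. In the list of 5 measured PRC2 subunits, 1 was called lower (Suz12). Ezh2 had a difference of -0.61 and Eed of -0.11 (limma, adjusted p = 2.25e-04 and 0.173). Summed levels are log2 of summed linear values. Same-numbered arrays of the groups had correlations of their deviations from -0.0641 to 0.0172, so replicate numbers were not treated as pairs. The test was tested on simulated data. Alternatives were the methods' t-test, an intensity trend with robust eBayes, percentile filters, median subtraction, a second quantile normalization, the replicate block and leaving out each array. Figures were drawn with matplotlib 3.10.9.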

Additional observations from a re-analysis of the deposited data

How the results depend on the processing

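The family was chosen on this contrast, so the counts of 1 higher (Capn6) and 1 lower (Capn9), also found whichever array was left out, are no sign of stability. Their log2 differences ran from 2.28 to 2.45 for Capn6 and from -2.62 to -2.36 for Capn9 without 1 array. Keeping only probe sets above the 60th percentile left 10 of the 15 family probe sets and took Capn9 out, so 0 were called lower. With this filter 556 probe sets of the array and 7 genes of the other lists were called higher, against 961 and 12 without it. Without the 2-fold limit, 4607 probe sets were higher and 6054 lower, 2 and 8 in the family and 38 and 29 in the other lists. Subtracting each array's median moved the median difference of all probe sets by 0.10, to -0.15. At 2-fold it gave 194 lower probe sets instead of 123. At an adjusted p alone it lowered the share of higher among all calls from 43.2% to 23.3%. Under this scaling the Capn5 probe set with a difference of 0.00 had -0.10, and the other 14 members kept their sign. The adjusted p was passed by 11 of 15, with Capns1 and Capn5 (1369441_at) gained and Capn8 (1387991_at) lost. The small calls of Capn1, Capn8 and the 2 dimmer Cast probe sets depended on the setting. All 4 were lost with the methods' t-test after adjustment (6 passed) and after a second quantile normalization (7 passed, Capn5 at 1369441_at among them). They were also lost without control replicate 1, ShSuz12 replicate 2 or ShSuz12 replicate 3 (6 passed each). Capn8 (1387991_at) was lost as well with the intensity trend and robust eBayes, median subtraction and the replicate block. The same held without control replicate 2 or 3, and the 60th percentile filter left it out. Capn1 and both dimmer Cast probe sets were each lost in some further settings. With the replicate block, 7 of 15 passed, and the counts at 2-fold were 962 higher and 123 lower over the array and 1 and 1 in the family; the check of the pairing found no shared deviation. The cause of these moves was not tested.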
